A study of Mus musculus with 24 samples.

Results

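Alveolar type 2 (AT2) cells sorted from mouse lungs were compared between a let-7 knockout and its control after 6 days of tamoxifen, in 3 libraries of each genotype. These 6 libraries are those that the labels name as sorted AT2 cells, out of 24 in the series, and every gene of their table was considered, 24970 symbols in all. A gene was tested when at least 3 of the 6 libraries held 1 TPM or more, which left 12109 genes. Per the labels, the controls were Sftpc-CreER/+; R26-tdT/+ and the knockouts let7afd-/-;Sftpc-CreER/+; R26-tdT/+, so both genotypes carried the Cre driver and the tdTomato reporter and both received tamoxifen. The Cre recombinase is driven from the Sftpc locus, the gene of surfactant protein C, so deletion was directed at cells that express that gene. The series' design text gives pools of 3 mice and 3 libraries per group. How the cells were stained and gated, and the age and sex of the mice, are not stated in the labels. The rest of the series holds whole lungs at 6 days and 6 months and AT2 organoids of the same genotypes. Its title links let-7 in AT2 cells to an epigenetic circuit, intermediate cells and lung fibrosis, and the comparison in sorted cells asks which transcripts differ in the cells that were meant to lose these microRNAs.

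MicroRNAs of the let-7 family pair through bases 2 to 8 of their 5′ end, the seed, with sites in the 3′ untranslated regions (UTRs) of messenger RNAs, which lowers the stability and translation of those messages. The family is scarce in early embryos and abundant in differentiated tissues, where its best known targets are genes of growth and the cell cycle. AT2 cells make and recycle lung surfactant, divide slowly in the healthy lung, and act as progenitors of the flat alveolar type 1 (AT1) cells that form the gas exchange surface.

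The deleted genes Mirlet7a-1, Mirlet7f-1 and Mirlet7d lie in a cluster of 2.26 kb on the minus strand of mouse chromosome 13 (GRCm38, chr13:48536012-48538272). The RefSeq table of mature microRNAs (GRCm38.p6) holds 9 distinct 5p sequences of the family, counting miR-98, from 11 loci. They are shown because the deletion removes 3 of the 11 loci and leaves others with the same seed. Capitals mark the seed, which all 9 share.
Deleted loci encode these sequences:
mmu-let-7a-5p: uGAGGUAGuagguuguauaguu
mmu-let-7f-5p: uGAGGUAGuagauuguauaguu
mmu-let-7d-5p: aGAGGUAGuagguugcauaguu
Loci outside the cluster encode these sequences, and Mirlet7f-2 on the X chromosome encodes let-7f too:
mmu-let-7b-5p: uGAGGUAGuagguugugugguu
mmu-let-7c-5p: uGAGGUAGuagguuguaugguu
mmu-let-7e-5p: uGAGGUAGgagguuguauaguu
mmu-let-7g-5p: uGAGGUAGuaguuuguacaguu
mmu-let-7i-5p: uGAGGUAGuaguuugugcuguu
mmu-miR-98-5p: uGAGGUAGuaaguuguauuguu
All 6 libraries, controls included, list 0 TPM for each of the 3 deleted precursor genes. Mature microRNAs carry no poly(A) tail and are not captured by poly(A) selection, so these zeros do not check the genotype, and the level of mature let-7 was not analysed here.

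The values were TPM, transcript abundances that the authors scaled to the same sum in every library. TPM keep no read numbers, so how deeply each library was sequenced is not known here. Between 11814 and 12178 genes reached 1 TPM in a library. The sorted cells held their defining markers at high levels: Sftpc alone took 15.5%, 14.4% and 14.2% of all TPM in the controls and 8.53%, 12.9% and 11.02% in the knockouts. The first principal component took 51% of the variance and separated the genotypes, and knockout 1 stood apart from the other knockouts on the second, which took 19.3%. Cytosolic ribosomal protein genes took 14.3% of TPM in knockout 1 and 7.84% to 9.14% in the other 5 libraries. Genes of other cell types were present at low levels and several were higher in the knockouts; the values are given with the results they move with. In libraries made from many cells, fewer cells of a type and less RNA per cell cannot be told apart. The labels do not say whether the libraries of a genotype came from separate pools, so p-values measure the spread between these libraries, which may in part be technical.

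In the knockout AT2 cells 802 of 12109 genes rose (6.62%) and 148 fell (1.22%) at an adjusted p under 0.05 by limma on log2(TPM + 1). Fold changes below are differences on that log2 scale, knockout against control, with the standard error of the fit, and they understate the change of genes with low TPM. Of the 950 genes that changed, 84.4% were higher in the knockouts, against 66.1% after median-ratio scaling (430 higher, 221 lower) and 65% after quantile normalization (401 higher, 216 lower). Every knockout lay above every control in 3080 genes (25.4%) and below every control in 1006 genes (8.31%). The median fold change of all genes tested was 0.08. Most changes were moderate: the genes that rose had a median of 0.65 and those that fell a median of −0.65, and 137 rose by at least 1 while 16 fell by at least 1 on the log2 scale. Among 249 genes with a control mean of 500 TPM or more, 4 rose and 4 fell, while among 2688 genes with a control mean under 5 TPM, 208 rose and 15 fell. Genes with low controls can pass the filter through the knockouts alone and have little room to fall. The split of rises and falls among them therefore follows in part from the filter and the grouping by control mean. The counts depended on single libraries. Leaving out control 1 gave 313 rises and 42 falls, control 2 gave 183 and 7, and control 3 gave 286 and 32. Leaving out knockout 1 gave 451 rises and 67 falls, knockout 2 gave 934 and 286, and knockout 3 gave 213 and 23. With each library left out in turn, 153 genes rose and 6 fell every time.

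Orm1, which encodes the secreted acute phase protein orosomucoid, had the largest rise. It measured 4.48, 3.03 and 7.02 TPM in controls 1 to 3 and 45.7, 52.9 and 73.2 TPM in knockouts 1 to 3, a fold change of 3.35 ± 0.26 (adjusted p 0.002302). Every knockout was far above every control, with the highest level in knockout 3. Orm2, a near-identical copy whose reads may be shared with Orm1, rose as well (1.56 ± 0.26). Hbb-bt, a haemoglobin gene with a near-identical copy, came next (3.26 ± 0.78), but its call held in 1 of the 6 fits that left out a library. Other named rises were Marco, a scavenger receptor of macrophages (2.96 ± 0.31), Fxyd4, a small subunit that modulates the sodium pump (2.93 ± 0.52), Clec4n, a C-type lectin of myeloid cells (2.91 ± 0.32), Ctsk, the protease cathepsin K (2.83 ± 0.35), and Zfp169, a zinc finger gene (2.76 ± 0.20). Chil3, a chitinase-like protein of alveolar macrophages, Fetub, a secreted protease inhibitor, Saa3, a serum amyloid, and Fcer2a, the low-affinity IgE receptor, rose by 1.98 to 2.43. The haemoglobin gene Hba-a1, whose reads may be shared with a copy, rose too (2.08 ± 0.38).

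The largest falls were smaller. Vpreb3, known from B cell precursors, measured 6.77, 4.91 and 4.5 TPM in the controls and 0.751, 1.93 and 0.404 TPM in the knockouts (−1.71 ± 0.27, adjusted p 0.0142). Cd59a, an inhibitor of the terminal complement complex, measured 18.9, 11.9 and 11.4 TPM in the controls and 6.25, 4.04 and 3.69 TPM in the knockouts (−1.40 ± 0.22). Lack of overlap between the groups was a condition for naming these falls. The call for Vpreb3 ended without 1 library and that for Cd59a without 2. Mgll, the lipase of monoacylglycerols, fell by 1.23, Igfbp2, which binds insulin-like growth factors, by 1.23, Notum, a secreted WNT inhibitor, by 1.20, and the neuropeptide gene Npw by 1.17. Rab6b, Rnf186, Cntfr, a subunit of the ciliary neurotrophic factor receptor, Cst8, Nrn1 and Adamtsl4 completed the 12 named falls, at 1.05 to 1.26 below controls on the log2 scale. Of the 12 genes with the largest falls, knockout 2 held the highest knockout level in 11, the exception being Cd59a, while it held the lowest knockout level in 8 of the 12 largest rises.

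**Figure D1:**
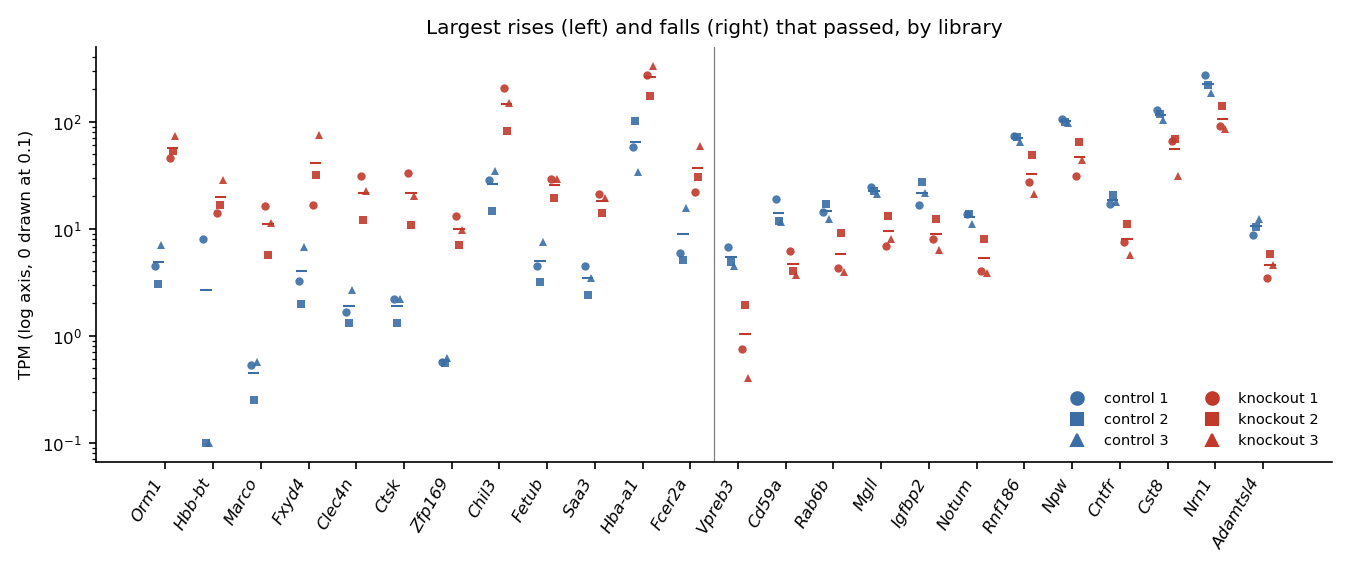
TPM on a log axis of the 12 genes with the largest named rises (left) and the 12 with the largest named falls (right) in each of the 6 libraries; blue symbols are controls, red symbols knockouts, the symbol shape gives the replicate number, bars are group means and values of 0 (Hbb-bt in controls 2 and 3) are drawn at 0.1. Lack of overlap between the groups was a condition for choosing these genes. Knockout 2 (red squares) often lies nearest the controls.

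Expressed neighbours of the deleted cluster were examined because the deletion is local. Zfp169 (chr13:48487647-48513451, minus strand) starts 22.6 kb from Mirlet7d, and was low in controls. It measured 0.5703, 0.553 and 0.617 TPM in controls 1 to 3 and 13.01, 7.03 and 9.78 TPM in knockouts 1 to 3 (2.76 ± 0.20, adjusted p 0.00207). The controls all lay under 1 TPM, so Zfp169 passed the filter through the knockouts alone, and the filter itself fixed the lack of overlap. The gene rose with any library left out. Of the 12 listed neighbours 5 passed the filter, and Zfp169 was the 1 that rose, with 0 falls. On the other side of the cluster at 39.6 kb, Ptpdc1, a phosphatase gene chosen after its values were seen, lay below the filter with 0.775, 0.971 and 1.01 TPM in the controls and 0.515, 0.308 and 0.674 TPM in the knockouts. The long noncoding RNA that spans the cluster was not analysed here.

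Genes with let-7 sites were counted next, since these are the transcripts that the microRNAs pair with. The longest annotated 3′ UTR of each gene (GENCODE M21, GRCm38) was searched for the 8mer CTACCTCA and for the 7mers CTACCTC and TACCTCA. Of 418 tested genes with an 8mer, 32 rose (7.66%) and 3 fell, with a median of 0.11. Of 1516 with a 7mer alone, 115 rose (7.59%) and 18 fell, with a median of 0.12. Of 9608 without a site, 631 rose (6.57%) and 116 fell, with a median of 0.08. The share that rose was thus about 1 percentage point above the 6.62% of all genes tested in both site classes. After median-ratio scaling 12 of the 418 8mer genes rose, beside 430 of all 12109 genes tested, so the 8mer share was then the lower. Of 18 genes with at least 2 copies of the 8mer, 3 rose.

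Among the 8mer genes that rose, those named here encode proteins of several kinds. Rrm2 is the small subunit of ribonucleotide reductase, which supplies deoxynucleotides. Gnptab tags lysosomal enzymes with mannose phosphate, St6gal1 adds sialic acid to glycoproteins, Ccnf is cyclin F, Dsn1 is a kinetochore subunit, Gk is glycerol kinase and Dpp3 a dipeptidyl peptidase. Windows of 30 bases around the sites of 5 of them are shown because they place the site in the longest annotated 3′ UTR of a gene that rose. Which transcript forms these cells held was not analysed here. Capitals mark the 8mer, the sequence runs 5′ to 3′ on the strand of the gene, and coordinates are those of the 8mer in GRCm38.
Rrm2 (chr12:24713362-24713369, plus strand): aaaaagctgtgtagCTACCTCAgtcctgtt
Gnptab (chr10:88445863-88445870, plus strand): catttgaaagtcacCTACCTCAgcatctgt
St6gal1 (chr16:23359508-23359515, plus strand): tgggggtgacaatcCTACCTCAcaaggctg
Ccnf (chr17:24222583-24222590, minus strand): ggggacagtaatgcCTACCTCAcaggaatg
Dsn1 (chr2:156996168-156996175, minus strand): tcctgtcagggaccCTACCTCAcagcagtc
Rrm2 measured 38.9, 33.5 and 35.5 TPM in the controls and 78.1, 70.8 and 67.8 TPM in the knockouts (0.99 ± 0.09, adjusted p 0.00312). St6gal1 measured 6.67, 6.21 and 7.75 TPM in the controls and 19.6, 13.5 and 18.97 TPM in the knockouts (1.21 ± 0.15, adjusted p 0.006504). In both genes every knockout was above every control and the call held with any library left out. Gnptab (0.69 ± 0.12), Ccnf (0.62 ± 0.10), Dsn1 (0.94 ± 0.15), Gk (0.72 ± 0.12) and Dpp3 (0.50 ± 0.09) rose with calls that ended without 1 or more libraries.

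A list of let-7 targets known from the literature had 43 tested genes, of which 9 were called higher, 0 lower and 34 neither, with a median of 0.29. The count was 6 after either scaling and 1 without control 2 or 2 without knockout 3. Besides Gnptab, the members that rose included the small GTPase gene Nras (15.8, 17.4 and 18.5 TPM in the controls and 30.2, 24.5 and 25.8 TPM in the knockouts; 0.61 ± 0.11) and Ezh2, the methyltransferase of Polycomb complex 2 (18.3, 17.1 and 13.9 TPM in the controls and 28.9, 25.9 and 24.7 TPM in the knockouts; 0.66 ± 0.12). Igf2bp2, an RNA-binding protein with an 8mer, measured 3.1, 3.06 and 3.23 TPM in the controls and 7.602, 5.21 and 5.3 TPM in the knockouts and rose (0.75 ± 0.15, adjusted p 0.0292). The targets known best from embryos were near absent: Hmga2, a chromatin protein, measured 0.109, 0.492 and 0.385 TPM in the controls and 0.172, 0.341 and 0.157 TPM in the knockouts, Igf2bp3 at most 0.306 TPM in any library, and Lin28b, the inhibitor of let-7 maturation, at most 0.0176 TPM, all below the filter. Bach1, a repressor of haem and antioxidant genes with an 8mer, measured 36, 47.02 and 36.2 TPM in the controls and 33.3, 34.02 and 34.4 TPM in the knockouts and did not pass (−0.21 ± 0.11, adjusted p 0.254). Myc, the growth factor-induced transcription factor, measured 6.67, 13.9 and 15.4 TPM in the controls and 39.2, 8.89 and 11.9 TPM in the knockouts. Its high value was that of knockout 1 alone, the groups overlapped, and it did not pass (0.48 ± 0.51, adjusted p 0.573). Of 16 genes of microRNA processing and Argonaute, 1 rose, the Dicer partner Tarbp2 (0.45 ± 0.10), a call that either scaling ended.

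Genes of DNA replication and mitosis were higher in all knockouts. In 8 lists that run from G1 cyclins to anaphase and fork repair, 116 of 155 tested members rose (74.8%), 0 fell and 39 did not pass, with a median of 0.72 against 0.08 for all genes. All knockouts were above all controls in 146 of the 155, beside 25.4% of all genes, and 60 rose with every library left out in turn. Without single libraries the count that rose was 67 to 117, with 77 without control 1, 67 without control 2, 72 without control 3 and 73 without knockout 3. These lists overlap in purpose with those used in earlier work on the same libraries, so the direction is not independent evidence.

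Origin licensing and firing, the steps that load and start replication helicases, had 15 of 20 members higher and 0 lower, with a median of 0.70. Their summed level was 359, 374 and 354 TPM in the controls and 633, 503 and 547 TPM in the knockouts. Gins2, part of the active helicase, measured 15.01, 13.7 and 12.4 TPM in the controls and 29.3, 25.5 and 24.8 TPM in the knockouts (0.91 ± 0.10, adjusted p 0.00491). Gmnn, the licensing inhibitor geminin (0.71 ± 0.09), Dbf4, which activates the CDC7 kinase (0.70 ± 0.09), and Cdc45 (0.73 ± 0.10) rose beside it. Of 20 genes of DNA synthesis and nucleotide supply, 16 rose and 0 fell, with a median of 0.56. Rfc4, a clamp loader subunit, had the largest fold change of the 155 genes. It measured 17.9, 18.5 and 21.5 TPM in the controls and 49.3, 39.4 and 51.7 TPM in the knockouts (1.23 ± 0.12, adjusted p 0.00312). The primase subunit Prim1 (0.92 ± 0.09), Rrm2 (0.99 ± 0.09) and the clamp loader subunit Rfc3 (0.62 ± 0.09) rose as well. In the sums of both replication lists knockout 1 was the highest library, and no control reached the lowest knockout.

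The mitotic lists had higher medians. Of 20 mitotic cyclins and kinases, 19 rose and 0 fell, with a median of 0.88. Their summed level was 240, 260.0 and 238 TPM in the controls and 486, 454 and 463 TPM in the knockouts, a ratio of means of 1.90 (exact permutation test, two-sided, p = 0.1, the smallest that 3 against 3 libraries allow). The knockout sums differed little from each other. Ccnb2, a mitotic cyclin, measured 18.3, 22.1 and 17.8 TPM in the controls and 41.5, 40.5 and 39.8 TPM in the knockouts (1.03 ± 0.10). Plk1, the polo kinase of mitotic entry, measured 12.2, 14.03 and 12.4 TPM in the controls and 27.9, 25.3 and 29.3 TPM in the knockouts (1.04 ± 0.10). Nek2, a centrosome kinase, rose too (0.95 ± 0.09).

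Spindle and kinetochore genes followed the same pattern in each library. Of 20 spindle kinesins and midzone proteins 17 rose and 0 fell, with a median of 0.84, among them Kif20a (0.89 ± 0.09) and Prc1 (0.68 ± 0.08), which build the central spindle, the cytokinesis regulator Ect2 (0.77 ± 0.08) and the contractile ring protein Anln (0.84 ± 0.09). Of 20 kinetochore and spindle checkpoint genes 19 rose and 0 fell, with a median of 0.74. Sgo2a, which protects centromeric cohesion, measured 6.01, 5.99 and 6.12 TPM in the controls and 14.01, 12.3 and 12.4 TPM in the knockouts (0.98 ± 0.10). Birc5 and Cdca8, subunits of the chromosomal passenger complex, and Cenpa, the centromeric histone, rose by 1.10, 1.02 and 0.96. Of 18 genes of anaphase promotion and chromosome condensation 15 rose and 0 fell, with a median of 0.77. Cdc20, the activator of the anaphase-promoting complex, measured 79.6, 79.1 and 74.2 TPM in the controls and 168, 176 and 167 TPM in the knockouts and, with Gpc3, had the smallest adjusted p of all genes (0.00146). Its ubiquitin-conjugating partner Ube2c (0.89 ± 0.08), topoisomerase Top2a (0.81 ± 0.09) and Cks2 (0.72 ± 0.08) rose. Mki67, the proliferation marker, measured 18.1, 22.1 and 19.7 TPM in the controls and 39.1, 34.5 and 39.1 TPM in the knockouts (0.88 ± 0.10, adjusted p 0.004499).

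**Figure D2:**
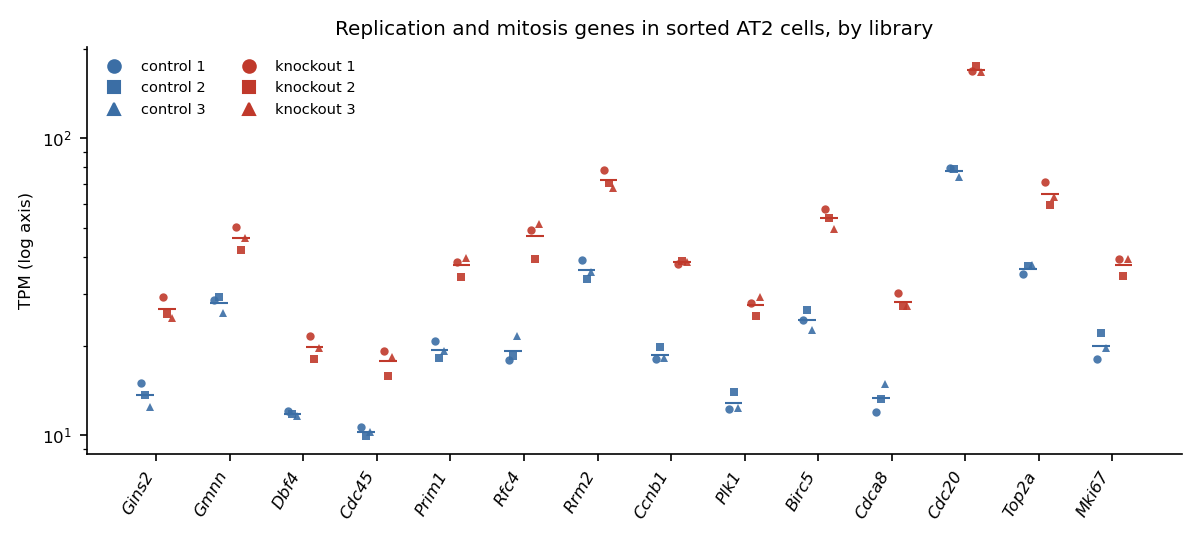
TPM on a log axis of 14 replication and mitosis genes in each library; blue symbols are controls, red symbols knockouts, the symbol shape gives the replicate number and bars are group means. Every knockout lies above every control in all 14 genes, for example Cdc20 at 74.2 to 79.6 TPM in controls and 167 to 176 TPM in knockouts.

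The genes that act before S phase changed less. Of 17 G1 cyclins and E2F factors 4 rose, Ccne2, E2f8, E2f1 and Skp2, by 0.53 to 0.75, and none of these 4 calls held with every library left out. The D cyclins, which respond to growth signals, did not pass: Ccnd1 measured 213, 197 and 205 TPM in the controls and 247, 223 and 234 TPM in the knockouts and Ccnd2 11.04, 13.7 and 10.2 TPM in the controls and 10.3, 8.92 and 6.48 TPM in the knockouts. Ccnd1 was a little above controls in every knockout, whereas Ccnd2 and Ccnd3 (0.05 ± 0.08) overlapped. Pttg1, the anaphase inhibitor securin, was the 1 gene of the 8 lists with all knockouts below all controls (49.4, 55.5 and 55.8 TPM in the controls and 49.4, 45.8 and 35.4 TPM in the knockouts) and did not pass (−0.31 ± 0.13, adjusted p 0.166). Among 6 inhibitors of cyclin-dependent kinases Cdkn2c (0.56 ± 0.10) and Cdkn2d (0.44 ± 0.10) rose. Of 20 genes of homologous recombination and fork repair 11 rose and 0 fell, with a median of 0.64; the count was 2 to 10 with a library left out and 4 after quantile normalization.

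The promoters of these lists were compared because their members moved together. Windows from 250 bases before to 50 after the start of transcription were taken from RefSeq (GRCm38.p6), which held 66 of 78 genes of the 4 mitotic lists and 33 of 40 of the replication lists. Both strands were searched for CCAAT, the box bound by NF-Y, for the cell cycle homology region (CHR, as TTTGAA or as the palindromes TTTAAA and, differing from it in the middle bases, TTCGAA) and for E2F sites, as TTTCCCGC, as the closely related variant TTTGGCGC and as the closely related variant TTTCGCGC. CCAAT and CHR occurred together in 40 of 66 mitotic promoters (60.6%), in 9 of 33 replication promoters (27.3%) and in 11.5% of all 27025 promoters. An E2F site occurred in 7 mitotic promoters (10.6%), in 11 replication promoters (33.3%) and in 1.91% of all. A match describes these letters and does not show binding. The promoters of Cdc20 and Ccnb1 are shown because both genes rose in every knockout by a similar amount and each holds 2 CCAAT boxes and 1 CHR, in capitals, on the strand of the gene.
Cdc20 (chr4:118437294-118437593, minus strand): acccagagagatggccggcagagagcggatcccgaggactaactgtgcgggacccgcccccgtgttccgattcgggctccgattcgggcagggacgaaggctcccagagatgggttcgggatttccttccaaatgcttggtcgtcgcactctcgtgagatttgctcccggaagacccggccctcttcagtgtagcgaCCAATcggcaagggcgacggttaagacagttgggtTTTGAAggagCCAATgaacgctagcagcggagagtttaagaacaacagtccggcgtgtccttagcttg
Ccnb1 (chr13:100786437-100786736, minus strand): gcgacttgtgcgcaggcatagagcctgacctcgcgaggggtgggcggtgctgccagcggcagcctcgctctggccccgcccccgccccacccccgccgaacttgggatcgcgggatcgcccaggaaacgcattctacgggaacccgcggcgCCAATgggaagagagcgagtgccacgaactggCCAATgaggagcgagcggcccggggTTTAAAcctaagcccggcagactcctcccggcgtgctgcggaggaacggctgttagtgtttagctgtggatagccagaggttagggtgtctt
Ccnb1, cyclin B1, measured 18.01, 19.9 and 18.2 TPM in the controls and 37.6, 38.7 and 38.3 TPM in the knockouts (1.00 ± 0.08, adjusted p 0.002302).

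Chromatin genes were described in a pair of lists. Of 31 Polycomb genes 2 rose and 1 fell, close to the share among all genes: Ezh2 and Phf19, a partner of Polycomb complex 2 (5.29, 4.78 and 5.61 TPM in the controls and 8.68, 9.88 and 8.17 TPM in the knockouts; 0.67 ± 0.11), rose, and Cbx7, a reader subunit of complex 1 (23.7, 25.9 and 20.7 TPM in the controls and 14.5, 16.6 and 13.3 TPM in the knockouts; −0.63 ± 0.12), fell. Of 41 other chromatin regulators 7 rose and 0 fell, led by the replication-linked helicase gene Hells (0.72 ± 0.12), the methyltransferases Suv39h1 (0.55 ± 0.11) and Dnmt1 (0.47 ± 0.10) and the deacetylase Hdac3 (0.34 ± 0.07). The count of these was 3 after median-ratio scaling and at most 2 without any single library other than knockout 2. H2afz, the histone variant H2A.Z, was among the largest gains in TPM, with 755, 773 and 797 TPM in the controls and 1382, 1153 and 1319 TPM in the knockouts (0.73 ± 0.11). Clustered histone genes, a family chosen after values were seen whose copies are near identical and mostly lack poly(A) tails, had 7 of 26 members higher and 1 lower, Hist2h2aa1 (−0.55 ± 0.13).

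**Figure D3:**
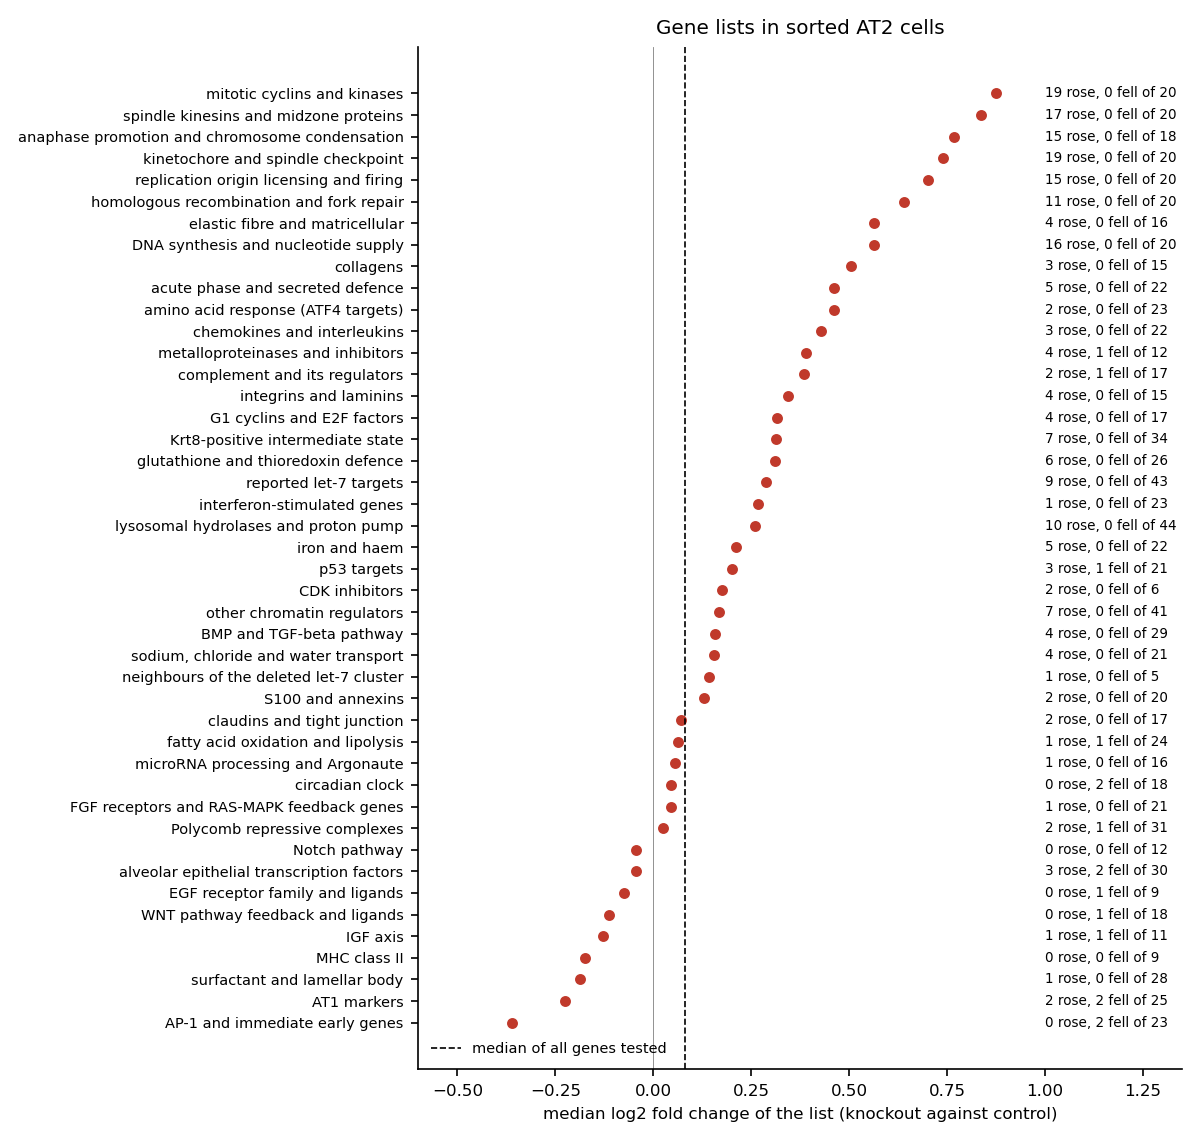
Median log2 fold change (knockout against control) of each list of genes by function with at least 5 tested members, with the number of members that rose and fell at the right; the dashed line is the median of all genes tested, 0.08. The 4 mitotic lists have the highest medians of the lists by function, the G1 list lies lower at 0.32, and AP-1 genes, AT1 markers and surfactant genes lie below 0.

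Genes that define AT2 cells did not pass. All 10 AT2 markers were tested, and limma called 0 of them at the adjusted threshold and 0 at an unadjusted p under 0.05, with a median of −0.21 that was −0.06 after quantile normalization. Sftpb measured 21310, 21680 and 19910 TPM in the controls and 15360, 19740 and 17930 TPM in the knockouts and Sftpa1 15730, 15250 and 15720 TPM in the controls and 9501, 14520 and 14920 TPM in the knockouts, and neither passed (−0.25 ± 0.30 and −0.29 ± 0.29). Both were lowest in knockout 1, and all knockouts lay below all controls, as they did for the Sftpc share of TPM given above. The standard error of the fit, which rests in part on the intensity trend, exceeded the effect in both Sftpb and Sftpa1. A missing call therefore does not show an unchanged level. Without the trend 0 of the 10 markers passed too. Lamp3, a lamellar body membrane protein, overlapped between genotypes (0.00 ± 0.16, adjusted p 0.9898), as did Abca3, the lipid transporter of lamellar bodies, and the transcription factor gene Etv5. Of 28 surfactant and lamellar body genes 1 rose, the membrane mucin Muc1 (850.1, 855 and 899 TPM in the controls and 1115, 1146 and 1351 TPM in the knockouts; 0.47 ± 0.11), and 0 fell, and without knockout 1 the median moved from −0.19 to −0.08.

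Few alveolar transcription factors passed. Of 30 genes 3 rose (10%) and 2 fell (6.67%), beside 6.62% and 1.22% of all genes tested. The list had 1 rise and 4 falls after median-ratio scaling and 0 of either without control 2 or knockout 3. Elf5, an ETS factor of lung epithelium, measured 66.5, 52.9 and 44.5 TPM in the controls and 79.03, 91.2 and 81.7 TPM in the knockouts (0.63 ± 0.14, adjusted p 0.03697), and Foxp2, a forkhead repressor (0.56 ± 0.11), and Id1, an inhibitor of basic helix-loop-helix factors that responds to BMP signals (0.82 ± 0.20), rose. Foxa1, a pioneer factor of endoderm, measured 64.9, 79.97 and 72.1 TPM in the controls and 50.4, 54.5 and 45.1 TPM in the knockouts and fell (−0.52 ± 0.10, adjusted p 0.0289). Hopx, which marks AT1 cells, measured 95.9, 127 and 80.6 TPM in the controls and 61.1, 70.6 and 54.2 TPM in the knockouts and fell (−0.68 ± 0.17). The calls of Elf5 and Foxp2 held in 1 and those of Foxa1, Id1 and Hopx in 2 of the 6 fits that left out a library.

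AT1 markers differed among themselves. Of 25 genes 2 rose (8%), 2 fell (8%) and 21 did not pass, with a median of −0.23. Of all genes tested 6.62% rose and 1.22% fell. Tspan8, a tetraspanin, measured 85.9, 76.6 and 71.4 TPM in the controls and 149.5, 149 and 154 TPM in the knockouts (0.95 ± 0.09, adjusted p 0.00312), and Pdpn, podoplanin, measured 12.95, 16.2 and 14.5 TPM in the controls and 22.6, 24.8 and 28.5 TPM in the knockouts (0.76 ± 0.12, adjusted p 0.0135). Both rises held with any library left out, whereas the falls of Hopx and Igfbp2 did not. Genes of the Krt8-positive intermediate state, through which AT2 cells pass on their way to AT1 cells after injury, had 7 of 34 members higher and 0 lower, with a median of 0.31. That count was 2 after either scaling and 0 without control 2 or without knockout 3. Plaur, the urokinase receptor, measured 5.495, 4.39 and 5.04 TPM in the controls and 18.96, 9.58 and 17.7 TPM in the knockouts (1.41 ± 0.23), and Cldn4, a tight junction claudin, measured 7.36, 3.22 and 4.97 TPM in the controls and 15.7, 10.4 and 24.2 TPM in the knockouts (adjusted p 0.0328). The hypoxia factor gene Hif1a (0.40 ± 0.09) rose as well. Krt8 itself measured 423, 645 and 566 TPM in the controls and 728, 526 and 756 TPM in the knockouts, overlapped between genotypes and did not pass (0.30 ± 0.19, adjusted p 0.348).

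Genes of junctions and adhesion rose in part. Cldn2, a claudin that forms cation pores, measured 0.497, 0.564 and 0.632 TPM in the controls and 2.803, 4.31 and 5.72 TPM in the knockouts (1.72 ± 0.21, adjusted p 0.00594), and it rose with any library left out. With Cldn4 it made 2 of 17 claudin and tight junction genes (11.8%), beside 6.62% of all genes tested. The median of this list, 0.07, was close to the 0.08 of all genes, and 1 gene rose after either scaling. Of 15 integrin and laminin genes 4 rose, among them the integrin subunit Itga6 (17.1, 21.2 and 28.6 TPM in the controls and 40.4, 46.2 and 63.3 TPM in the knockouts; 1.13 ± 0.21) and the laminin chains Lama5 (0.46 ± 0.09) and Lamc1 (0.45 ± 0.11). The count was 0 without control 1, control 2 or knockout 3.

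Signalling lists held few changes. Of 29 BMP and TGF-beta genes 4 rose and 0 fell: Inhbb, the activin B subunit, measured 9.55, 8.64 and 11.97 TPM in the controls and 19.9, 21.1 and 25.7 TPM in the knockouts (1.08 ± 0.14, adjusted p 0.00711), and its receptor gene Acvr1b (0.68 ± 0.13), the ligand gene Bmp5 (0.30 ± 0.07) and the target Id1 rose beside it. After either scaling 2 of the 4 passed, and 1 did without control 2 or knockout 3. Of 9 genes of the EGF receptor family and its ligands 1 fell, the feedback inhibitor Errfi1, which measured 816, 1106 and 858 TPM in the controls and 396, 557 and 584 TPM in the knockouts (−0.86 ± 0.18). Of 18 WNT genes 1 fell, the inhibitor Notum, which measured 13.8, 13.8 and 11.2 TPM in the controls and 4.01, 8.06 and 3.82 TPM in the knockouts (−1.20 ± 0.24). Of 11 genes of the IGF axis, Igf2bp2 rose and Igfbp2 fell (16.7, 27.03 and 21.5 TPM in the controls and 8.06, 12.3 and 6.27 TPM in the knockouts; −1.23 ± 0.24). In the FGF receptor and RAS-MAPK feedback list 1 of 21 rose, Nras, and of 12 Notch genes 0 passed by limma. At an unadjusted p under 0.05, 3 Notch genes were higher and 2 lower, and the smallest adjusted p was that of the ligand gene Jag2 (−0.50 ± 0.14, adjusted p 0.0644).

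Few immediate early genes passed. The list of AP-1 subunits and related early genes had 23 tested members, 0 higher calls, 2 lower calls and a median of −0.36. Their summed level was 5842, 9149 and 8106 TPM in the controls and 5256, 5650 and 5756 TPM in the knockouts, so the controls varied most and control 1 lay near the knockouts. Zfp36, which destabilizes cytokine messages, measured 403, 582 and 480.2 TPM in the controls and 265, 312 and 334 TPM in the knockouts (−0.67 ± 0.15), and Btg2, an antiproliferative p53 target, measured 67.8, 116 and 111 TPM in the controls and 54.4, 56.99 and 56.9 TPM in the knockouts (−0.76 ± 0.19). Both calls ended in 5 of the 6 fits that left out a library, and the count that fell was 7 without control 1 and 0 without any other library. A pair of genes was chosen after values were seen: Klf15, a Kruppel-like transcription factor, measured 28.9, 35.4 and 26.7 TPM in the controls and 18.1, 14.98 and 14.95 TPM in the knockouts (−0.88 ± 0.13, adjusted p 0.00989) and the salt-inducible kinase gene Sik1 78.2, 105 and 84.8 TPM in the controls and 49.2, 55.7 and 45.9 TPM in the knockouts (−0.81 ± 0.12, adjusted p 0.0124), and both fell with any library left out. Of 12 Kruppel-like factors, Klf15 and Klf9 (−0.68 ± 0.16) fell, and of 4 FOXO factors, Foxo3 (−0.68 ± 0.16) and Foxo4 (−0.47 ± 0.11) fell, the last 3 in calls that ended when single libraries were left out. Herpud1, a protein of endoplasmic reticulum quality control, measured 413, 462 and 371 TPM in the controls and 225, 241 and 244 TPM in the knockouts (−0.81 ± 0.10, adjusted p 0.00599) and fell in every such fit. The other 3 genes that did so were Aldh3a1, Slc10a6 and Vkorc1. Of 18 clock genes 2 fell, Arntl (22.2, 20.5 and 24.1 TPM in the controls and 9.402, 15.6 and 14.7 TPM in the knockouts; −0.73 ± 0.17) and its relative Npas2 (−0.96 ± 0.23). The call of Arntl held in 2 of the 6 fits that left out a library and that of Npas2 in 0, and after either scaling 1 clock gene fell.

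Among stress lists, 6 of 26 glutathione and thioredoxin genes rose and 0 fell, with 2 after median-ratio scaling and 0 without control 2 or knockout 3. Slc7a11, the cystine transporter, measured 0.2401, 0.262 and 0.401 TPM in controls 1 to 3 and 5.702, 1.71 and 3.37 TPM in knockouts 1 to 3 (1.73 ± 0.30). Gclm, of glutathione synthesis, measured 17.7, 17.3 and 22.8 TPM in controls 1 to 3 and 50.3, 28.3 and 38.2 TPM in knockouts 1 to 3 (0.95 ± 0.20), and Cbr3, a carbonyl reductase, measured 10.4, 9.35 and 11.3 TPM in controls 1 to 3 and 31.3, 14.6 and 20.6 TPM in knockouts 1 to 3 (0.97 ± 0.23). In all 3 knockout 1 was the highest and knockout 2 the lowest knockout. Me1, the malic enzyme, rose by 0.59, and Akr1b8, an aldose reductase chosen after its values were seen, measured 42.4, 36.4 and 55.8 TPM in the controls and 173, 99.99 and 136 TPM in the knockouts (1.57 ± 0.21). Of 22 iron and haem genes 5 rose and 0 fell, with 3 rises after either scaling, 1 without control 1 and 0 without control 2 or knockout 3. Hmox1, haem oxygenase, measured 113, 124 and 136 TPM in the controls and 273, 185 and 269 TPM in the knockouts (0.94 ± 0.16), and Slc11a1, an iron transporter of phagocytes (1.25 ± 0.24), and Aco1, the iron regulatory protein (0.40 ± 0.09), rose.

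Of 23 ATF4 targets of the amino acid response 2 rose, Slc7a11 and Slc7a5, a transporter of large neutral amino acids (0.62 ± 0.15), and 0 rose without control 1, control 3 or knockout 3. Of 21 p53 targets 3 rose, Psrc1, Ccng1 and Fas, and 1 fell, Btg2; after either scaling 1 rose. Psrc1, a spindle protein, measured 3.596, 4.05 and 3.21 TPM in the controls and 9.81, 7.27 and 9.34 TPM in the knockouts (1.08 ± 0.14, adjusted p 0.00702). Fas, the death receptor, which holds a let-7 8mer, rose by 0.68. Proteasome subunits, a family chosen after values were seen, had 16 of 38 members higher and 0 lower, with fold changes of 0.34 to 0.52 in those that rose, for example Psmd11 (0.52 ± 0.09), Psmc1 (0.45 ± 0.08) and Psma1 (0.40 ± 0.09). The count was 2 after median-ratio scaling, 3 after quantile normalization or without knockout 1, 1 without control 1 or control 3, and 0 without control 2 or knockout 3.

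Lysosomal genes rose in part. Of 44 hydrolases and proton pump subunits 10 rose and 0 fell, with a median of 0.26, and 7 rose after either scaling and 4 without control 1 or control 2. Ctsk measured 2.204, 1.31 and 2.22 TPM in controls 1 to 3 and 33.2, 10.8 and 20.4 TPM in knockouts 1 to 3, Ctss, the cathepsin of antigen-presenting cells, 11.9, 6.24 and 8.62 TPM in the controls and 25.9, 22.02 and 34.03 TPM in the knockouts (1.53 ± 0.22), and Lipa, the lysosomal lipase, 2.42, 1.83 and 1.94 TPM in the controls and 9.12, 5.71 and 9.38 TPM in the knockouts (1.54 ± 0.19). Ctsk and Ctss are also abundant in macrophages, and the list shares Ctsk and Atp6v0d2 with the alveolar macrophage markers. The summed level of those markers was 720, 651 and 653 TPM in controls and 769, 780 and 885 TPM in knockouts. That sum follows its most abundant members. Over the 12 tested markers the median fold change was 0.94, with 5 higher and 0 lower, beside 6.62% higher among all genes tested. Some of them, such as Marco, passed the filter through the knockouts alone. With no filter on low values 3 of 15 markers rose, with a median of 0.77. The part of such cells in these rises was not tested.

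Of 21 genes of sodium, chloride and water transport 4 rose and 0 fell, with 1 rise without control 1, control 3 or knockout 3 and 0 without control 2. Fxyd4 measured 3.28, 1.99 and 6.71 TPM in controls 1 to 3 and 16.5, 32.1 and 74.9 TPM in knockouts 1 to 3 (adjusted p 0.0202), with a spread of more than 4-fold among the knockouts. Fxyd5 (1.25 ± 0.26), the chloride channel gene Ano1 (0.54 ± 0.11) and the bicarbonate cotransporter gene Slc4a4 (0.44 ± 0.09) rose too. Of 24 genes of fatty acid oxidation and lipolysis, the dehydrogenase gene Acadl rose (0.44 ± 0.11) and Mgll fell (24.3, 22.4 and 21.3 TPM in the controls and 6.92, 13.3 and 8.05 TPM in the knockouts; −1.23 ± 0.20). Among the largest gains in TPM were Gapdh, of glycolysis (739.6, 719.8 and 814 TPM in the controls and 1541, 1090 and 1314 TPM in the knockouts; 0.78 ± 0.14), the cold-induced RNA-binding protein gene Rbm3 (268, 242 and 201 TPM in the controls and 577, 515 and 719 TPM in the knockouts; 1.34 ± 0.15) and Ptgs1, a cyclooxygenase (182, 194 and 235 TPM in the controls and 308, 451 and 620.2 TPM in the knockouts; 1.12 ± 0.23). Gapdh is often used as a reference gene, and all knockouts lay above all controls. Among the largest losses were Selenbp1 (857, 950.4 and 936 TPM in the controls and 576, 692 and 688 TPM in the knockouts; −0.49 ± 0.11), Bex4 (−0.51 ± 0.11) and Grcc10 (−0.45 ± 0.10).

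Secreted defence genes rose from low and from high levels. Of 22 acute phase and secreted defence genes 5 rose and 0 fell, with a median of 0.46, and 2 rose without knockout 3. Lcn2, which binds bacterial siderophores, measured 1858, 1663 and 2761 TPM in controls 1 to 3 and 4787, 4862 and 6803 TPM in knockouts 1 to 3 (1.40 ± 0.24, adjusted p 0.0174) and had the largest gain in TPM among the genes that rose. Saa3 measured 4.47, 2.39 and 3.44 TPM in the controls and 21.2, 13.97 and 19.2 TPM in the knockouts (2.12 ± 0.21, adjusted p 0.00312). Of 17 complement genes C1ra (0.81 ± 0.17) and Clu, clusterin (0.85 ± 0.21), rose and Cd59a fell, and neither rise passed after median-ratio scaling. Of 22 chemokines and interleukins 3 rose: Ccl6 (8.07, 4.29 and 10.4 TPM in the controls and 33.1, 19.7 and 28.5 TPM in the knockouts; 1.75 ± 0.29), Cxcl3 (3.95, 5.22 and 7.899 TPM in the controls and 11.8, 12.9 and 18.3 TPM in the knockouts; 1.22 ± 0.23) and Il1b (3.64, 1.19 and 2.19 TPM in the controls and 6.09, 5.65 and 13.4 TPM in the knockouts; 1.46 ± 0.35). The count was 1 without control 2 and 0 without knockout 3. Ccl6 and Il1b are products of myeloid cells. The pan-leukocyte genes had summed levels of 180.3 to 250.4 TPM in controls and 277 to 352 TPM in knockouts, sums that follow their most abundant members. Over the 10 genes the median fold change was 1.36, with 5 higher and 0 lower. The part of such cells was not tested. Of 23 interferon-stimulated genes 1 rose, Ifi27 (0.48 ± 0.10). Of 9 MHC class II genes 0 passed by limma and 3 were lower at an unadjusted p under 0.05, among them H2-Ab1, which measured 1342, 1432 and 1536 TPM in the controls and 859, 1256 and 1189 TPM in the knockouts (−0.40 ± 0.16, adjusted p 0.159), lowest in knockout 1.

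Members of the matrix lists that passed were higher, apart from a metalloproteinase. Of 15 collagens 3 rose: Col6a2 (41.3, 42.5 and 49.9 TPM in the controls and 64.9, 82.4 and 91.01 TPM in the knockouts; 0.81 ± 0.13), Col18a1 (0.62 ± 0.13) and Col6a1 (0.56 ± 0.14), and 1 did after either scaling and 0 without control 2 or knockout 3. Of 16 elastic fibre and matricellular genes 4 rose, Eln, elastin (1.71, 0.663 and 0.859 TPM in the controls and 7.81, 3.76 and 5.06 TPM in the knockouts; 1.64 ± 0.26), Fn1, fibronectin (6.66, 2.47 and 3.23 TPM in the controls and 11.9, 8.15 and 10.4 TPM in the knockouts; 1.19 ± 0.28), Spp1, osteopontin (25.98, 31.5 and 31.2 TPM in the controls and 107, 43.8 and 60.1 TPM in the knockouts; 1.13 ± 0.28), and Tnc, tenascin C (0.71 ± 0.17); 1 rose after either scaling and 0 without control 2, control 3 or knockout 3. With no filter on low values 1 of 25 collagens and 2 of 28 elastic fibre and matricellular genes rose. Spp1 was highest in knockout 1. The summed level of fibroblast markers was 68.4, 13.5 and 16.2 TPM in controls and 42.4, 64.2 and 50.2 TPM in knockouts, with the highest value in control 1; their part in the matrix values was not tested.

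Among 12 metalloproteinases and inhibitors, Timp2 measured 27.7, 28.4 and 25.8 TPM in the controls and 56.7, 44.2 and 48.3 TPM in the knockouts (0.84 ± 0.10, adjusted p 0.00594), and Adam10 (0.43 ± 0.07) and Adamts1 (0.65 ± 0.12) rose, while Mmp28, an epithelial metalloproteinase, measured 4.21, 4.103 and 4.09 TPM in the controls and 1.72, 2.32 and 1.83 TPM in the knockouts and fell (−0.80 ± 0.13). Without control 2 or knockout 3, 1 of the rises passed and the fall did not. Of 20 S100 and annexin genes S100a14 (21.4, 20.6 and 23.1 TPM in the controls and 44.98, 42.4 and 47.9 TPM in the knockouts; 1.02 ± 0.08, adjusted p 0.00257) and Anxa1 (0.93 ± 0.23) rose. Of genes chosen after values were seen, Gpc3, a heparan sulfate proteoglycan of developing organs, measured 19.3, 19.2 and 20.6 TPM in the controls and 45.3, 47.9 and 48.8 TPM in the knockouts (1.23 ± 0.08, adjusted p 0.00146), and Cdkn3, a phosphatase of cyclin-dependent kinases, 12.98, 13.1 and 12.5 TPM in the controls and 37.1, 31.1 and 33.2 TPM in the knockouts (1.32 ± 0.09). Their groups were more than 2-fold apart in TPM and each group was tight. St3gal4, a sialyltransferase like St6gal1, also chosen after its values were seen, measured 26.4, 23.4 and 33.99 TPM in the controls and 60.3, 56.7 and 86.7 TPM in the knockouts (1.24 ± 0.18).

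Several markers of macrophages, of leukocytes at large and of red cells rose. Of 12 tested alveolar macrophage markers 5 rose and 0 fell, with a median of 0.94 and 3 rises without control 1, control 2 or knockout 3, while Siglecf, which defines these cells, was at or under 1.01 TPM in every library and did not pass the filter. With no filter on low values 3 of 15 markers rose and the median was 0.77. Chil3 measured 28.7, 14.8 and 34.3 TPM in controls 1 to 3 and 206, 80.9 and 151 TPM in knockouts 1 to 3 and Marco 0.534, 0.248 and 0.573 TPM in controls 1 to 3 and 16.4, 5.71 and 11.2 TPM in knockouts 1 to 3; both were highest in knockout 1 and lowest of the knockouts in knockout 2. Of 10 pan-leukocyte genes 5 rose and 0 fell, with a median of 1.36, all 10 were higher at an unadjusted p under 0.05, and their summed level was 250.4, 180.3 and 207 TPM in controls and 348, 277 and 352 TPM in knockouts. Fcer1g, a chain of Fc receptors, measured 5.23, 4.93 and 4.49 TPM in controls 1 to 3 and 13.4, 11.98 and 18.7 TPM in knockouts 1 to 3 (1.39 ± 0.16) and the integrin gene Itgb2 5.28, 2.59 and 3.94 TPM in controls 1 to 3 and 12.04, 11.7 and 21.3 TPM in knockouts 1 to 3 (1.68 ± 0.26); these were highest in knockout 3, unlike Marco and Chil3. Ptprc, the leukocyte antigen CD45, measured 3.37, 0.999 and 2.24 TPM in controls 1 to 3 and 5.02, 4.48 and 10.1 TPM in knockouts 1 to 3 and did not pass (1.23 ± 0.34, adjusted p 0.0653). Without control 2, 2 of the pan-leukocyte genes rose. Of 10 markers of monocytes and interstitial macrophages 1 rose (10%, beside 6.62% of all genes tested), Cd68 (1.04 ± 0.17), and 0 fell. Trem2, a lipid receptor of macrophages chosen after its values were seen, rose with little spread (1.03, 0.764 and 0.904 TPM in the controls and 3.51, 4.11 and 4.28 TPM in the knockouts; 1.39 ± 0.14).

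Erythroid genes were higher, with 2 of 3 tested members risen and sums of 160.0, 107 and 81.4 TPM in controls and 291, 285 and 481 TPM in knockouts. None of 10 T and NK cell genes in the table reached the filter, and of the tested endothelial (10 genes), club and goblet (8), ciliated (6), basal (3), mesothelial (3), B cell (1) and neutrophil (4) markers 0 passed by limma. At an unadjusted p under 0.05, 1 endothelial and 1 neutrophil gene were higher and 1 club cell and 1 ciliated cell gene were lower. The share of each result that other cell types carried was not tested.

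**Figure D4:**
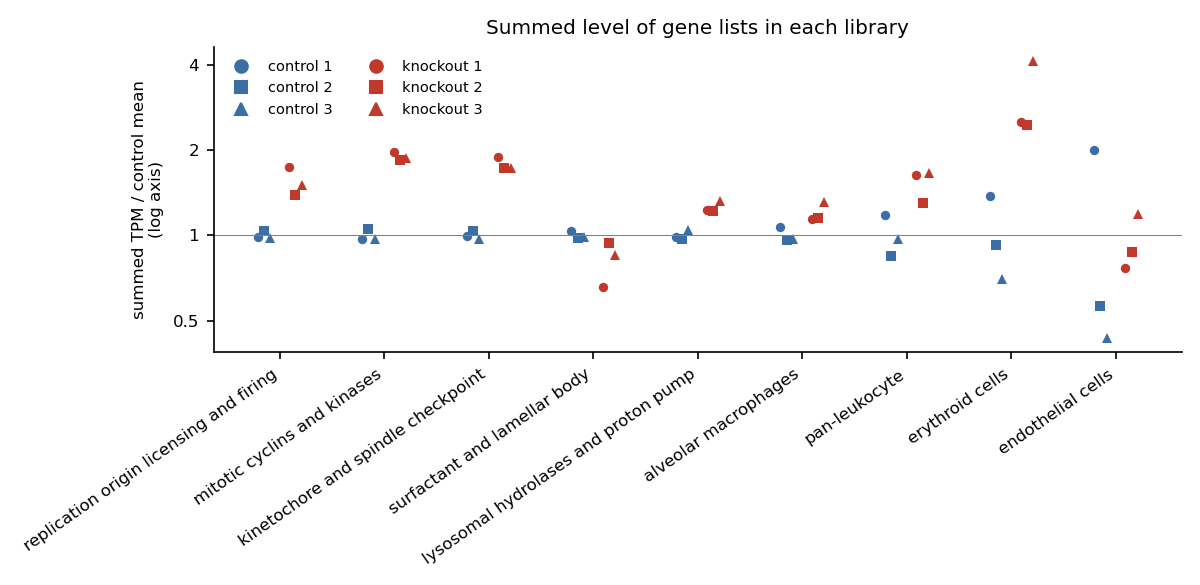
Summed TPM of 9 gene lists in each library divided by the mean of the 3 controls, on a log axis; blue symbols are controls, red symbols knockouts and the symbol shape gives the replicate number. Mitotic and kinetochore sums lie at 1.7 to 2.0 times the control mean in all knockouts, while the erythroid and endothelial sums vary widely within a genotype.

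The sorted cells were set beside whole lungs of the same genotypes at 6 days (3 mice each) and AT2 organoids grown for 14 days (2 mice each), which share no library with them. For each gene the difference of the fold changes was tested, over 11766 genes for the lungs and 11351 for the organoids. Against the lungs, 83 genes had a higher fold change in AT2 cells (0.705%) and 42 a lower one (0.357%). Against the organoids, 690 were higher (6.08%) and 365 lower (3.22%). The cell cycle lists showed little difference: their median was 0.71 in AT2 cells and 0.64 in lungs over 154 genes tested in both, with 0 differences that passed, and 0.72 and 0.69 in organoids over 155 genes, with 4 differences that passed, all higher in AT2 cells (Gmnn, Rfc4, Cenpe and Sgo2a). In the lungs 146 of the 154 had positive values, 8 rose and 1 fell, and in the organoids 151 of the 155 had positive values and 0 passed. Of all 11766 genes 330 rose and 277 fell in lungs, with a median of −0.12. Of all 11351 genes 19 rose and 36 fell in organoids, with a median of 0.08. Few genes of any kind passed in organoids, so the missing calls there say little about these lists. Gmnn was higher in knockout AT2 cells (0.71) and lower in knockout organoids (−0.73), with an adjusted p of 0.0187 for the difference.

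Some fold changes in the sorted cells differed from those in whole lungs, which mix AT2 cells with other cells. Deletion was directed at cells that express Sftpc, so these values set a part beside the whole. The share of that mixture in the differences was not tested. Zfp169 had 2.76 in AT2 cells against 0.79 in lungs (difference adjusted p 0.0165) and 2.11 in organoids (0.101). Elf5 had 0.63 against −0.59 in lungs (0.0165), Itga6 1.13 against −0.42 (0.0471) and St6gal1 1.21 against −0.09 (0.0472). In the other direction Hmox1 had 0.94 in AT2 cells and 4.46 in lungs (0.0341) and Spp1 1.13 and 4.26 (0.00895). For Marco, 2.96 in AT2 cells and 4.69 in lungs, the difference did not pass (0.254).

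Against organoids the list of acute phase and secreted defence genes had 10 of 16 members higher in AT2 cells, with a median of 0.62 against −1.85. Orm1 had 3.35 against −2.52 (difference adjusted p 2.96e-05) and Fetub 2.19 against −1.23 (0.000165). Inhbb had 1.08 against −1.97 (6.76e-05) and Acvr1b, its receptor, 0.68 against −0.64 (0.00105). Of 25 AT1 markers 9 had a lower fold change in AT2 cells than in organoids and 1 a higher one, with medians of −0.23 and 0.84. Igfbp2 fell in AT2 cells (−1.23) and was 3.42 in organoids (6.76e-05), and Hopx had −0.68 and 0.83 (0.0195). Culture, time after tamoxifen and genotype effects differ together between these sets of libraries and cannot be told apart.

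**Figure D5:**
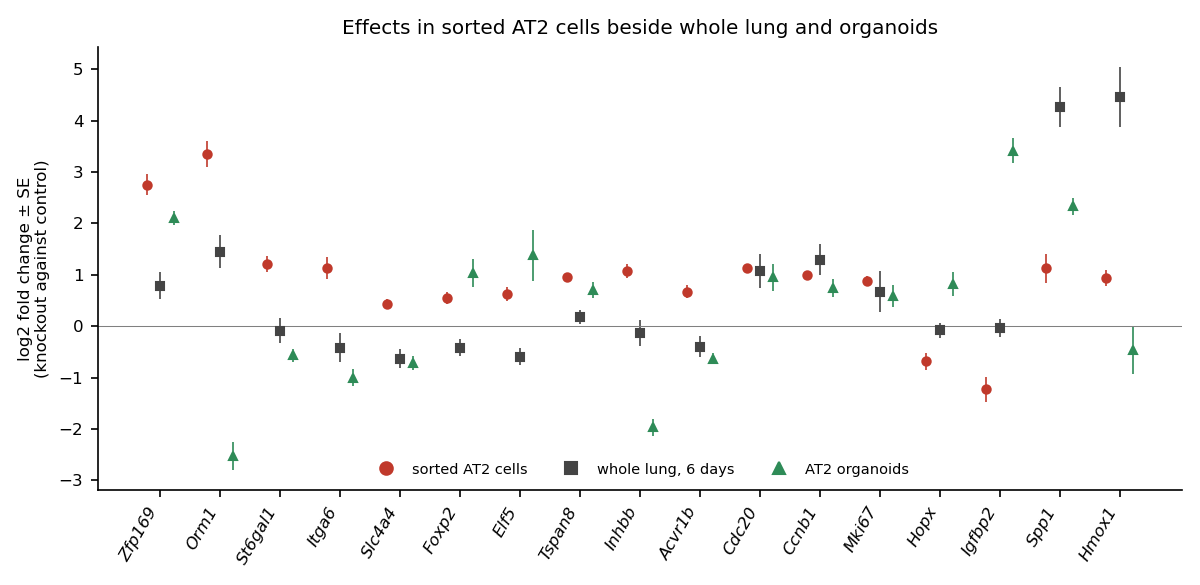
Log2 fold change (knockout against control) with its standard error for 17 genes in sorted AT2 cells (red circles, 3 libraries per genotype), whole lungs at 6 days (grey squares, 3 per genotype) and AT2 organoids (green triangles, 2 per genotype). Cdc20, Ccnb1 and Mki67 lie above 0 in all 3, while Orm1, Inhbb, Igfbp2, Hmox1 and Spp1 differ widely between them.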

How the data were processed

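Poly(A)-selected, non-stranded TruSeq libraries were made from RNA of sorted AT2 cells (RNeasy kit), per the labels' protocols. The deposited values are TPM per gene symbol that the authors computed on GRCm38, per the submitters' processing notes; aligner, quantifier and gene models are not given there, and depth cannot be recovered from TPM. Because the libraries are non-stranded, overlapping genes cannot be told apart, and near-identical copies (haemoglobins, Orm1 and Orm2, histones) are uncertain. Of 24972 rows, 2 that shared a symbol were left out, and 24 symbols had been turned into dates.

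Genes with at least 1 TPM in 3 of the 6 libraries were tested with limma 3.58.1 (R 4.3.3) on log2(TPM + 1), with an intensity trend and Benjamini-Hochberg adjustment over all genes tested at 0.05. The fit was tested on simulated data. Differences between the fold changes in AT2 cells and in lungs or organoids used the SE of each fit and were adjusted over all genes tested in both. Sums over lists were compared by exact permutation tests (scipy 1.17.1, Python 3.11.15), for which 3 against 3 libraries allow no p below 0.1. Let-7 sites were searched in the longest 3′ UTR of at least 50 bases of 20657 genes. Other settings tried were library weights, a replicate block, each library left out, no trend, median-ratio and quantile scaling, a filter of 5 TPM or none, and a pseudocount of 0.1.

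Named genes are the 12 largest rises and falls without overlap and with at least 5 TPM in the higher group, up to 4 members of each list that passed with the smallest adjusted p and any that went against the list, 2 where none passed, the 8 leading 8mer genes, the 6 largest gains and losses in TPM, and a fixed set. Some genes that the rule selects are not reported here. The members, lists and this rule were chosen with earlier results of these data known. The labels do not say whether pools share mice, so p-values measure the spread between these libraries. The 6-month lungs were not used here.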

Additional observations from a re-analysis of the deposited data

Results flagged for a closer look

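Each result here was singled out because the fold change in sorted AT2 cells differed from that in another kind of sample by a test of the difference itself, at an adjusted p under 0.05. Values are differences on the log2 scale, the effect in AT2 cells minus the effect in the other samples.

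Against whole lungs at 6 days, which also hold cells other than AT2 cells, 11 of the genes described differed. The part of those other cells was not tested. Effects were lower in the sorted cells for 3 of them, with −3.53 for Hmox1, −3.13 for Spp1 and −1.01 for Msln. They were higher in the sorted cells for the other 8, with 0.766 for Tspan8, 0.974 for Foxp2, 1.07 for Slc4a4 and 1.22 for Elf5. St6gal1 had 1.3, Itga6 1.55, Orm1 1.9 and Zfp169 1.96.

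Against organoids, 40 differed. Effects were lower in the sorted cells for the AT1 genes Igfbp2 (−4.64) and Hopx (−1.51), for the alveolar and BMP-responsive regulators Etv5 (−1.29) and Id1 (−1.29), and for Npw (−2.06), Spp1 (−1.21) and Zfp36 (−0.92). Among genes with higher effects in the sorted cells, the differences were 5.86 for Orm1, 4.43 for Saa3 and 2.48 for Lcn2 of the secreted defence list, 3.42 for Fetub, 2.11 for the complement gene C1ra and 1.69 for the interferon-stimulated gene Ifi27. The basal keratins Krt14 and Krt5 differed by 5.56 and 5.1, with effects of −4.71 and −4.17 in organoids and of 0.85 and 0.93, which did not pass, in sorted cells. Immune and lysosomal genes differed by 3.59 for Retnlg, 2.82 for Cd68, 2.44 for H2-Ab1, 2.08 for Lipa and 2.02 for Ctsk.

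Adhesion and matrix genes differed by 3.3 for Cldn2, 2.8 for Fn1, 2.13 for Itga6 and 1.41 for Lama5, and the sialyltransferase gene St6gal1 by 1.77. Activin and BMP genes differed by 3.04 for Inhbb, 1.31 for Acvr1b and 1.1 for Bmp5. Redox genes differed by 2.75 for Slc7a11, 1.62 for Cbr3 and 1.41 for Gclm. The cell cycle genes Gmnn, Rfc4 and Sgo2a differed by 1.43, 0.982 and 0.826. S100a14 differed by 3.65, Selenbp1 by 1.32, Slc4a4 by 1.15, Gapdh by 1, Rbm3 by 0.959 and Hif1a by 0.888. With 3 libraries per genotype, no group was large enough to look for single libraries that stand apart gene by gene.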

How the results depend on the processing

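Scaling and single libraries set how many genes passed. Rises numbered 802 with the settings of the report, 430 after median-ratio scaling, 401 after quantile normalization, 340 with no filter on low values, and 183 to 934 with a library left out. Falls numbered 148, and 30 with no filter, 86 without the variance trend and 7 to 286 with a library left out; how many genes these sets share was not counted. The cell cycle lists held 67 to 117 rises with a library left out and kept their count within 1.5 times under every other setting. The 32 rises with a let-7 8mer became 10 with no filter, 12 after median-ratio scaling, 9 after quantile normalization, 20 with the replicate block, 147 when 7mers were added and 4 to 38 with a library left out. The 3 falls became 7 after either scaling, 21 with 7mers and 1 to 8 with a library left out. Against lungs, 83 higher differences became 51 with a shared spread and 50 with a pseudocount of 0.1, and 42 lower ones became 109 after median-ratio scaling. Against organoids, 365 lower differences became 661 with a shared spread. The cause of each change was not tested, other than fewer samples when a library is left out.

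Lamp3, which did not pass, turned from 0.005 to −0.288 after quantile normalization and to −0.0836 after median-ratio scaling, and ranged from −0.0789 to 0.137 with a library left out. Myc, which did not pass, ranged from −0.126 to 0.885. Of 172 named genes that passed, 132 passed after quantile normalization, 136 after median-ratio scaling, 64 without control 2 and 72 without knockout 3, and none changed direction under any setting run. Replicate numbers were shared across genotypes. Same-numbered libraries had correlations of deviations of −0.173, 0.0764 and 0.172, and differently numbered ones had −0.243 to 0.151. With 3 libraries per genotype these values cannot show whether the numbers pair the samples. With the replicate block 627 genes rose and 151 fell, and chemokines and interleukins had 8 rises in place of 3. Depth is unknown, so which low genes it limits cannot be said.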

Other observations

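The genes of this paragraph were chosen after their values were seen and belong to none of the lists. Itm2a, a membrane protein of differentiating cells, measured 23.6, 16.03 and 23.6 TPM in the controls and 75.4, 72.6 and 104 TPM in the knockouts and rose (1.95 ± 0.18, adjusted p 0.00312 by limma). Akr1c19, an aldo-keto reductase, rose by 1.22, Pcx, pyruvate carboxylase, by 1.16, and Bcl2l15, a BCL2-like protein, went from 0.243 TPM on average in controls to 4.04, 4.57 and 5.18 TPM in the knockouts. These 4 genes rose with any library left out. The falls that did the same included Vkorc1, which recycles vitamin K, with 66.2, 70.5 and 58.3 TPM in the knockouts and no control under 100 TPM (−0.65 ± 0.09, adjusted p 0.00735), and Aldh3a1, an aldehyde dehydrogenase, with 7.79, 6.61 and 7.59 TPM in the controls and 2.34, 3.45 and 3.75 TPM in the knockouts (−1.01 ± 0.16). In both the controls were tight and no knockout reached them.

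Several abundant secreted genes had large differences in TPM that did not pass. Retnla, an alternative activation marker that lung epithelium also secretes, measured 608, 242 and 2059 TPM in controls 1 to 3 and 422, 3293 and 10360 TPM in knockouts 1 to 3 (adjusted p 0.332). Scgb1a1, the club cell secretoglobin, measured 13080, 2818 and 3894 TPM in controls 1 to 3 and 2141, 4821 and 4800 TPM in knockouts 1 to 3 (adjusted p 0.599), with the highest level in control 1. Of families chosen after values were seen, mitochondrial ribosomal proteins had 7 of 78 members higher and complex I subunits 4 of 46, with 0 lower. Of all genes tested, 6.62% rose. After either scaling 0 members of these families rose.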
